A study of Mus musculus with 4 samples.

Results

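The 5 genes Cxcl9, Cxcl10, Cxcl16, Cxcr3 and Cxcr6 of the CXCR3 and CXCR6 chemokine axes were followed, the first 3 as ligands and the others as receptors. They were taken by gene symbol, 5 of the 31053 features of the count matrices, and all 5 were detected. Single-cell RNA had been counted in live immune cells (CD45+), sorted from untreated fibrosarcomas grown in mice for 11 days. Tumours labelled Raldh1/3 DKO (double knockout of retinaldehyde dehydrogenases 1 and 3, enzymes that make retinoic acid) were compared with tumours labelled Cas9 control. There were 2 libraries a group, made from 2 pooled tumours each, so the p-values measure only the spread between pools. The label places the deletion in the tumour, whose own cells the CD45 sort is meant to remove. Between 28 and 63 kept cells per library still carried tumour or fibroblast markers. The deletion itself was not checked here.

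CXCL9 and CXCL10 are secreted chemokines induced by interferon gamma that bind CXCR3, a receptor of effector T cells and NK cells. CXCL16 is made as a membrane protein with a chemokine domain, can be shed by ADAM proteases, and binds CXCR6, a receptor of tissue-resident and activated T cells. Dendritic cells and macrophages are known sources of these ligands in tumours, where they draw T cells and hold them in place. Cxcl11, the other CXCR3 ligand of the family, was not analysed here.

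Cxcl9 and Cxcl10 lie side by side on the minus strand of chromosome 5, with 18558 bases between them, into which Art3 on the other strand reaches (GRCm38, GENCODE vM21). Cxcl9 covers chr5:92321347-92328079 with 4 exons, and Cxcl10 covers chr5:92346638-92348889 with 4 exons inside the span of Art3. Cxcl16 (chr11:70453983-70459984, minus strand, 5 exons) overlaps Zmynd15 on the other strand. Cxcr6 (chr9:123806475-123811760, plus strand, 2 exons) lies opposite Fyco1, and Cxcr3 (chrX:101731535-101734269, minus strand, 2 exons) overlaps no annotated gene. The strand setting of the counting is not given in the sources used here. Whether reads of Cxcl10, Cxcl16 and Cxcr6 were told apart from those of their opposite-strand neighbours is therefore not known.

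The promoters of the CXCR3 ligands are shown because both genes are known interferon targets that were measured side by side here. Each window runs from 250 bases before to 50 bases after the start (RefSeq, GRCm38.p6), and 4 of the 5 members had one. Capitals mark matches on either strand to the interferon-stimulated response element core (GAAA, any 2 bases, GAAA), the gamma-activated sequence TTCNNNGAA, the T-box core AGGTGTGA or the NF-kappaB consensus.
Cxcl9, chr5:92328030-92328329, minus strand: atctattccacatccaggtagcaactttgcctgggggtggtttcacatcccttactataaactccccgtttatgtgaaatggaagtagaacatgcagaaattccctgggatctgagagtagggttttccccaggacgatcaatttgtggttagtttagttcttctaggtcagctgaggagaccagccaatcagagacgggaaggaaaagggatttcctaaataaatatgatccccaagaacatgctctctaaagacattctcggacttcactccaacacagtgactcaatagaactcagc
Cxcl10, chr5:92348840-92349139, minus strand: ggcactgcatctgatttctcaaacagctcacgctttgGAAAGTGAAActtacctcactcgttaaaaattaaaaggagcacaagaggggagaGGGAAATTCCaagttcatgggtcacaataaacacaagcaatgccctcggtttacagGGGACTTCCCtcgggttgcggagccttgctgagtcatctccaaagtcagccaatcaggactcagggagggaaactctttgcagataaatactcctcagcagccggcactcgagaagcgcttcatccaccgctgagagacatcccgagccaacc
The Cxcl10 window held 1 response element match, which 3.44% of 32851 windows of this length hold, and 2 NF-kappaB matches, which 4.51% hold at least once. No overlap among these matches occurred. The Cxcl9 window held no match to any of the 4 motifs, and neither did those of Cxcr3 and Cxcr6. The gamma-activated sequence occurred in 8.30% and the T-box core in 1.28% of all windows.

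The libraries held 57458026 to 80032966 unique molecular identifiers (UMIs, each a counted transcript molecule) over 5429 to 9206 barcodes. After filters, 6178 and 4647 cells of the DKO libraries and 7638 and 7417 cells of the control libraries were kept. Between 53 and 76 barcodes of a library also occurred in another library. Cells were clustered without the 5 genes and without the listed pathway genes, and classes carry the word "like" because markers alone name them. Cd3e was found in 82.0% to 89.8% of T-like cells, Ncr1 in 58.6% to 74.4% of NK-like cells and Csf1r in 93.2% to 94.9% of monocyte/macrophage-like cells. Levels are given as CPM, the summed UMIs of a gene in the cells of a library, scaled to a total of 1000000 UMIs over all genes.

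Monocyte/macrophage-like cells were the main source of all ligand transcripts. They held 90.4% to 95.3% of Cxcl9 UMIs, 81.1% to 91.0% of Cxcl10 UMIs and 90.7% to 94.2% of Cxcl16 UMIs in a library. Dendritic-like cells, a smaller class, added 2.25% to 5.71% of Cxcl10 UMIs. Cxcl9 averaged 974 ± 122 CPM in monocyte/macrophage-like cells (SD, n = 4 libraries), above the highest library of dendritic-like cells at 734 CPM.

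Cxcl9 UMIs were found in 48.9% to 63.3% of monocyte/macrophage-like cells, and Cxcl16 UMIs in 83.2% to 88.6%. In T-like cells, taken as a class that should lack Cxcl9, 6.66% to 10.2% of cells had a Cxcl9 UMI, and this is read as background. The median depth was 9002.5 to 12987.5 UMIs in monocyte/macrophage-like cells and 4798 to 6098 UMIs in T-like cells. Few cells carried most of the CXCR3 ligand: the 10% of monocyte/macrophage-like cells with the most Cxcl9 held 61.5% to 73.9% of its UMIs, and for Cxcl10 the share was 82.1% to 91.4%. For Cxcl16 it was 29.5% to 31.8%, a more even spread over cells.

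Within the myeloid cells Cxcl9 and Cxcl16 had their highest mean level in the same state, and Cxcl10 in another. Cxcl9 was highest in state M5 (leading genes Ly6i, Nos2, Saa3 and Acod1) at 3321 ± 519 CPM, followed by state M1 (Apol7c, Tlr12, Dnase1l3) at 1928 ± 522 CPM (SD, n = 4 libraries each). Those ranges did not overlap, nor did that of M1 with the next state. State M3, led by the interferon-induced Rsad2 and Ifit1, came next at 1062 ± 179 CPM, and its range overlapped that of the state after it. Cxcl10 was highest in M3 at 1764 ± 259 CPM, followed by M9, a state led by the monocyte genes Hp, Ace and Plac8, at 1272 ± 268 CPM. M5 followed at 1051 ± 248 CPM, and each of these ranges overlapped the next. Cxcl16 was highest in M5 at 910 ± 101 CPM, then in M15, the Ccr7-high mature dendritic state, at 839 ± 120 CPM, with overlapping ranges.

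**Figure D1:**
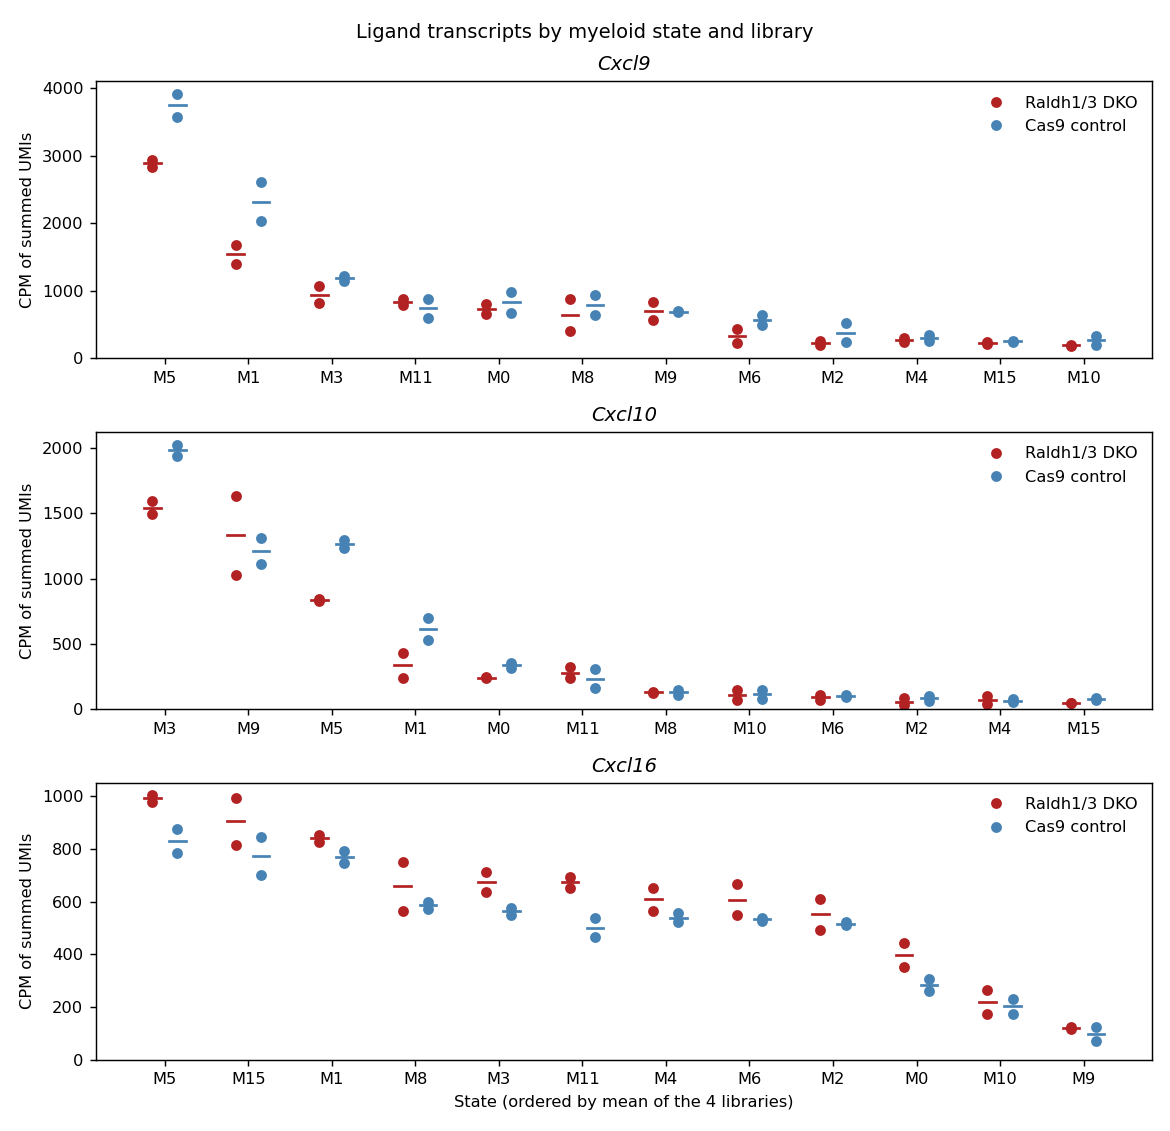
CPM of summed UMIs (y axis) of the 3 ligands in the 12 myeloid states tested (x axis), with 1 point per library, a bar at each group mean, and Raldh1/3 DKO left of Cas9 control. In state M5 the DKO libraries had 2941 and 2838 CPM of Cxcl9, below the 3922 and 3582 CPM of the control libraries, and 978 and 1005 CPM of Cxcl16, above the control libraries at 875 and 784 CPM.

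Neutrophil-like cells also held Cxcl10 transcripts. Their Cxcl10 level was 2270 and 2014 CPM in the DKO libraries, against 1356 and 1126 CPM in the control libraries. The groups did not overlap, and the log2 change was 0.63 ± 0.23 (SE). It did not pass the threshold (adjusted p = 0.376, edgeR quasi-likelihood test over 3510 genes), where 3 genes, 0.0855%, passed and 29.9% had all DKO libraries above all control libraries. These cells were few and shallow, with 83 to 348 cells per library and a median of 1607 to 2093 UMIs, and 21.3% to 29.8% of them had a Cxcl10 UMI. In T-like cells, a deeper class, the share was 8.41% to 13.2%, and 8 to 20 cells per library had 10 or more Cxcl10 UMIs. The T-like share is therefore not taken as a background level for Cxcl10. The shares of neutrophil-like cells overlapped between groups, at 29.8% and 22.9% in DKO and 24.2% and 21.3% in control, and 11 to 27 cells per library had 10 or more Cxcl10 UMIs. Neutrophil-like cells held 1.80% to 3.62% of all Cxcl10 UMIs, and T-like cells 1.91% to 5.49%. T markers summed to 67.1 and 113 CPM in DKO neutrophil-like cells, against 37.9 and 31.0 CPM in control. The monocyte/macrophage markers went the other way, at 4552 and 4622 CPM in DKO, against 5240 and 5294 CPM in control. The part of either set of transcripts in the Cxcl10 level was not tested. This comparison was added after the levels had been seen.

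None of the 5 genes passed the adjusted p threshold of 0.05 between DKO and control in any class or state tested. Over the 12 myeloid states 0.22% of all gene tests passed, and over the 8 T and NK states 0.415% did. In monocyte/macrophage-like cells 1 of 12949 genes passed, 0.00772% of those tested. The called gene was Dnase1l3, a secreted nuclease that is also a leading gene of state M1, and it no longer passed without either DKO library (adjusted p 0.0999 without replicate 1 and 0.186 without replicate 2). Each comparison below therefore gives values with their spread.

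Cxcl9 in monocyte/macrophage-like cells was 1127 and 878 CPM in the DKO libraries, against 874 and 1016 CPM in the control libraries. The groups overlapped, with a log2 change of 0.05 ± 0.20 (SE, adjusted p = 0.956, edgeR). Cxcl10 was 427 and 260 CPM in the DKO libraries and 347 and 431 CPM in the control libraries, again overlapping (log2 -0.21 ± 0.28, adjusted p = 0.837, edgeR).

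Cxcl16 was the ligand whose groups stood apart in this class. It was 710 and 656 CPM in the DKO libraries, against 561 and 512 CPM in the control libraries. Its log2 change of 0.32 ± 0.15 (SE) missed the threshold (adjusted p = 0.614, edgeR), and 21.4% of all genes had all DKO libraries above all control libraries. After thinning each cell to 3000 UMIs, 77.5% and 72.4% of cells in DKO had a Cxcl16 UMI, against 70.5% and 66.4% in control (exact permutation p = 0.33). Unthinned, the shares were 88.6% and 87.4% in DKO, against 86.6% and 83.2% in control.

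In dendritic-like cells Cxcl10 was 182 and 171 CPM in the DKO libraries, against 223 and 253 CPM in the control libraries. The groups did not overlap, and 14% of the genes tested had all DKO libraries below all control libraries. The log2 change of -0.50 ± 0.15 (SE) had adjusted p = 0.496 (edgeR, 0 of 9629 genes passed, 810 at an unadjusted p under 0.05, and DESeq2 passed 8). Of the 15 monocyte/macrophage markers 7 lay lower in DKO dendritic-like cells without overlap and 0 higher, with a summed level of 1523 and 1678 CPM in DKO, against 2090 and 1991 CPM in control. The part of these transcripts in the Cxcl10 level was not tested. Cxcl9 there was 623 and 492 CPM in DKO, against 734 and 550 CPM in control, with overlapping groups. The change of a ligand in monocyte/macrophage-like cells minus that in dendritic-like cells was 0.31 for Cxcl9, 0.24 for Cxcl10 and 0.19 for Cxcl16 on the log2 scale, with adjusted p of 0.981 or more (edgeR, 0.254% of genes passed).

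Within single states the levels of both CXCR3 ligands lay mostly lower in DKO. The log2 change of Cxcl9 was negative in 11 of 12 myeloid states, with a median of -0.34, and its groups stood apart, lower in DKO, in 4. That of Cxcl10 was negative in 9 of 12, with a median of -0.26, and stood apart, lower, in 5. Of all gene tests in these states 18.3% stood apart in that direction, with a range of 13.8% to 23.1% by state. The log2 change was positive for 49.3% to 51.2% of all genes by state. The states were cut from the same 4 libraries, so counts over states are not counts of independent repeats. In M1, Cxcl9 was 1685 and 1391 CPM in the DKO libraries, against 2030 and 2606 CPM in the control libraries (log2 -0.61 ± 0.16, adjusted p = 0.254, edgeR). In M5, Cxcl10 was 829 and 847 CPM in the DKO libraries, against 1295 and 1234 CPM in the control libraries (log2 -0.63 ± 0.17, adjusted p = 0.444, edgeR).

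Cxcl16 went the other way. Its log2 change was positive in 12 of 12 myeloid states, with a median of 0.17, and its groups stood apart, higher in DKO, in 7. Of all gene tests in these states 22.3% did so, with a range of 17.1% to 28.8% by state. In state M11, led by cell-cycle genes, Cxcl16 was 650 and 695 CPM in the DKO libraries, against 537 and 466 CPM in the control libraries. The log2 change was 0.40 ± 0.15 (SE, adjusted p = 0.505, edgeR).

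A class level moves with the mix of its states, so each gene was recomputed with every state's level weighted by its mean share over the 4 libraries. At that fixed mix Cxcl9 was 940 and 790 CPM in the DKO libraries, against 1006 and 1207 CPM in the control libraries. As observed, over the same states, it was 1099 and 841 CPM in DKO and 865 and 996 CPM in control. The groups overlapped as observed and did not overlap at the fixed mix. The log2 change at the fixed mix was -0.35 (-0.16 with states cut more finely, at Leiden resolution 2). The exact two-sided permutation p was 0.33, the smallest that 2 against 2 libraries can give. The states were cut from genes that differed between the groups themselves, Dnase1l3 in M1 among them, so state membership and group cannot be told apart in this value.

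**Figure D2:**
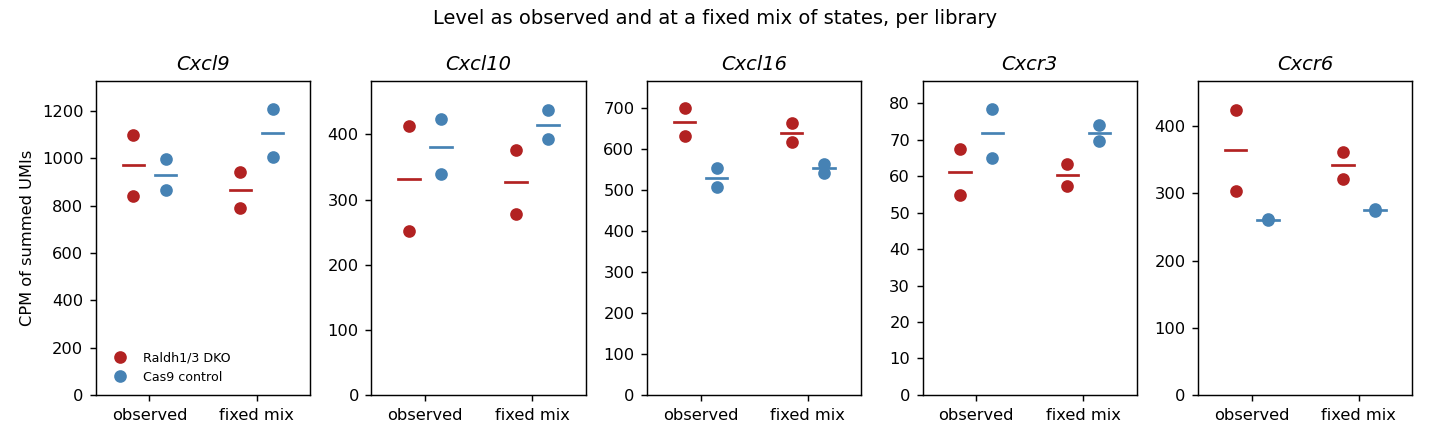
CPM of summed UMIs (y axis) of each gene per library, as observed and at a fixed mix of states (15 myeloid states for ligands, 13 T and NK states for receptors), with bars at group means and Raldh1/3 DKO left of Cas9 control. The groups of Cxcl9 overlapped as observed, while at the fixed mix its DKO libraries (940 and 790 CPM) lay below its control libraries (1006 and 1207 CPM).

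Interferon gamma pathway genes were read beside the ligands. Of the listed genes that carry the interferon gamma signal, 13 of 14 were tested in monocyte/macrophage-like cells and none passed, with 11 positive and a median log2 change of 0.29. The median of all genes tested was 0.01. Irf1, a transcription factor of the interferon response, was 205 and 211 CPM in the DKO libraries, against 147 and 157 CPM in the control libraries, and Il18 was 17.6 and 12.1 CPM in DKO, against 19.6 and 32.8 CPM in control. Of 16 listed interferon gamma-induced genes 15 were tested and none passed, with 14 positive and a median of 0.30. By state the induced list differed in sign: in M1 3 of 15 were positive, with a median of -0.21, and in M6 5 of 15, with a median of -0.08. The largest changes in the class were those of Iigp1 (0.59) and Gbp4 (0.52), which encode interferon-induced GTPases.

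Several of these genes passed the test in state M4, led by Cxcl3, Ppbp, Hmox1 and the hypoxia-induced Egln3. In M4, 120 of 8799 genes passed, 1.36% of those tested. Of the interferon gamma signal list Irf1, Socs1 and Tnf rose, 3 of 12 tested, and of the induced list Gbp2, Gbp3, Irgm1 and Cd274 rose, 4 of 15 tested. Median log2 changes of these lists were 0.27 and 0.63, against -0.01 for all genes tested. Cd274, which encodes the checkpoint ligand PD-L1, was 278 and 212 CPM in the DKO libraries, against 129 and 133 CPM in the control libraries (log2 0.90 ± 0.16, adjusted p = 0.0203, edgeR). Irgm1 was 82.2 and 62.0 CPM in DKO, against 34.9 and 30.3 CPM in control (log2 1.15 ± 0.19, adjusted p = 0.0141, edgeR). None of the 7 genes passed without either control library, and all 7 passed without either DKO library. With the same replicate numbers as a block 3 of them passed. In M4 Mmp9 of the ligand processing list also passed (1 of 4 tested, higher), as did Cxcr4 of the other chemokine genes (1 of 7, higher). Of the 8 receptor-linked genes tested Bhlhe40, Id2 and Klf2 rose and S1pr1 fell. Outside M4, 1 of 15 genes of the induced list passed in M10, and genes of the other lists passed in M0, M3, M11 and M15, all higher. In those states 0.102% to 0.321% of all genes passed. Of all 13 list genes called in M4, 0 passed without control replicate 1, 1 without control replicate 2 and 8 with the replicate block.

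The ligands themselves did not pass in M4. Cxcl9 was 243 and 299 CPM in the DKO libraries, against 349 and 258 CPM in the control libraries, and the groups overlapped (log2 -0.16 ± 0.17). Cxcl10 was 97.7 and 36.5 CPM in DKO, against 74.7 and 55.0 CPM in control, a wide overlap (log2 0.05 ± 0.47). Whether the change of the ligands differs from that of the other genes was not tested.

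**Figure D3:**
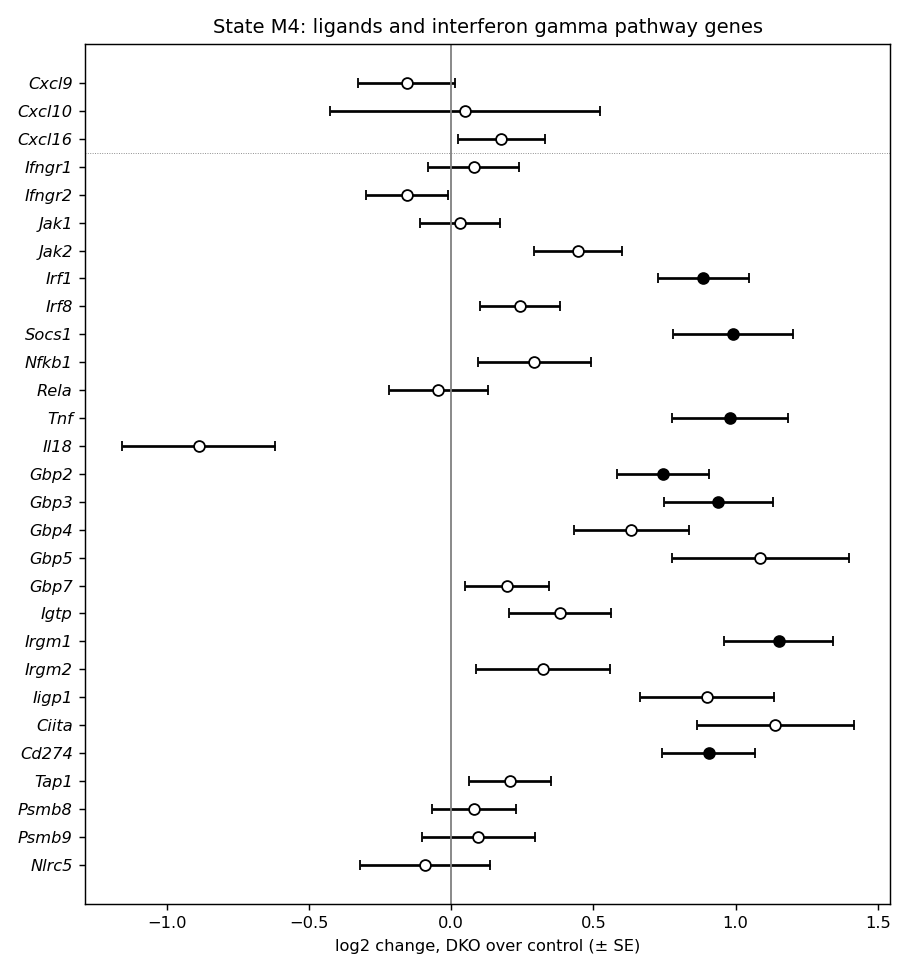
Log2 change, DKO over control, with its SE (x axis) of the 3 ligands (above the dotted line) and of tested genes of the interferon gamma lists in state M4. Filled points passed the adjusted p threshold of 0.05: 7 of the listed genes did, and Cxcl9 (-0.16), Cxcl10 (0.05) and Cxcl16 (0.18) did not.

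The other lists gave no calls in monocyte/macrophage-like cells. Of the ligand processing list 0 of 5 passed, with Mmp9 at 0.38 and the CXCL16 sheddase gene Adam17 at 0.11 on the log2 scale. Adam10, the other main sheddase gene, was 129 and 165 CPM in DKO, against 163 and 134 CPM in control. Of 8 other inflammatory chemokine and receptor genes 0 passed, and Cxcr4 had the largest change at 0.78.

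T-like cells held most receptor transcripts: 81.4% to 84.2% of Cxcr3 UMIs and 79.9% to 94.4% of Cxcr6 UMIs in a library. NK-like cells held 8.64% to 10.1% of Cxcr3 UMIs, and cells left unnamed held 3.74% to 16.9% of Cxcr6 UMIs. Cxcr3 UMIs were found in 26.9% to 35.8% of T-like cells and in 0.716% to 1.15% of monocyte/macrophage-like cells, the background class. Cxcr6 UMIs were found in 52.4% to 67.1% of T-like cells and in 0.389% to 1.29% of that class. The receptors had different high states. Cxcr3 was highest in L11, a Foxp3 regulatory T state, at 134 ± 36.4 CPM. Cxcr6 was highest in L9, led by Il4, Il13 and Il5, at 839 ± 153 CPM, and in L0, a CD4 T state, at 816 ± 122 CPM (SD, n = 4 libraries each). The ranges of L9 and L0 overlapped. L9 had as few as 17 cells in a library, and Cd3e was found in 91.5% and Cd4 in 96.7% of its cells. It was left unnamed because 4 of its leading genes were innate lymphoid markers and 0 were T markers.

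Cxcr6 was higher in every DKO library than in every control library over all CD45+ cells. It was 99.3 and 83.2 CPM in DKO, against 42.4 and 35.4 CPM in control. The log2 change of 1.17 ± 0.14 (SE) had an unadjusted p of 0.000224 and adjusted p = 0.136 (edgeR, 0 of 14412 genes passed, 1855 at an unadjusted p under 0.05, and DESeq2 passed 426). In all, 30% of genes stood apart in this direction. T-like cells were 28.9% and 27.1% of kept cells in the DKO libraries, against 19.3% and 14.6% in the control libraries. More T cells and more RNA per cell cannot be told apart in a level over all cells.

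Within T-like cells the difference was smaller. Cxcr6 was 521 and 375 CPM in the DKO libraries, against 316 and 354 CPM in the control libraries (log2 0.35 ± 0.17, adjusted p = 0.406, edgeR). The groups did not overlap, and 32.6% of genes tested stood apart in this direction. After thinning to 3000 UMIs, 60.0% and 47.9% of T-like cells in DKO had a Cxcr6 UMI, against 43.4% and 46.6% in control, and unthinned 67.1% and 59.2% in DKO, against 52.4% and 54.4% in control. At a fixed mix of states the T and NK cells together had 361 and 322 CPM in DKO, against 274 and 276 CPM in control (log2 0.31, exact permutation p = 0.33). Neither the T-like class nor this mix includes L9, the unnamed state with the highest Cxcr6 level, most of whose cells had Cd3e. L9 had 44 and 66 cells in the DKO libraries, against 26 and 17 in the control libraries. The part of L9 in the Cxcr6 difference was not tested.

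Cxcr6 stood apart, higher in DKO, in 5 of the 7 T states tested. Of all gene tests in the 8 T and NK states 27.6% did so, with a range of 26% to 29.2% by state. In L11, the Foxp3 state, it was 169 and 167 CPM in the DKO libraries, against 94.4 and 84.0 CPM in the control libraries (log2 0.83 ± 0.21, adjusted p = 0.140, edgeR). In NK-like cells it was 14.8 and 38.5 CPM in DKO, against 14.2 and 9.59 CPM in control, with DKO replicate 2 far above the other libraries, and 0.152% of genes passed. The difference of change between T-like and NK-like cells was -0.80 on the log2 scale (adjusted p = 0.998, edgeR, 0.0374% of genes passed).

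Cxcr3 lay lower in DKO in most T and NK states. In T-like cells it was 61.5 and 76.6 CPM in the DKO libraries, against 85.4 and 80.0 CPM in the control libraries (log2 -0.34 ± 0.12, adjusted p = 0.292, edgeR). All DKO libraries lay below all control libraries, as 16% of genes did. By state its groups stood apart, lower, in 6 of 8 and higher in 1. Of all gene tests there 16.5% stood apart in the lower direction, with a range of 13.5% to 18.8% by state. The 1 state with a higher level was L3, a CD8 T state led by Ccl4, Ccl3, Crtam and Ifng. There Cxcr3 was 93.1 and 118 CPM in DKO, against 77.8 and 75.6 CPM in control. Over all CD45+ cells, where the share of T-like cells enters, it was 12.9 and 16.7 CPM in DKO, against 12.6 and 9.17 CPM in control (log2 0.37 ± 0.17, adjusted p = 0.432, edgeR). At a fixed mix of T and NK states it was 57.3 and 63.2 CPM in DKO, against 74.0 and 69.8 CPM in control (exact permutation p = 0.33).

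**Figure D4:**
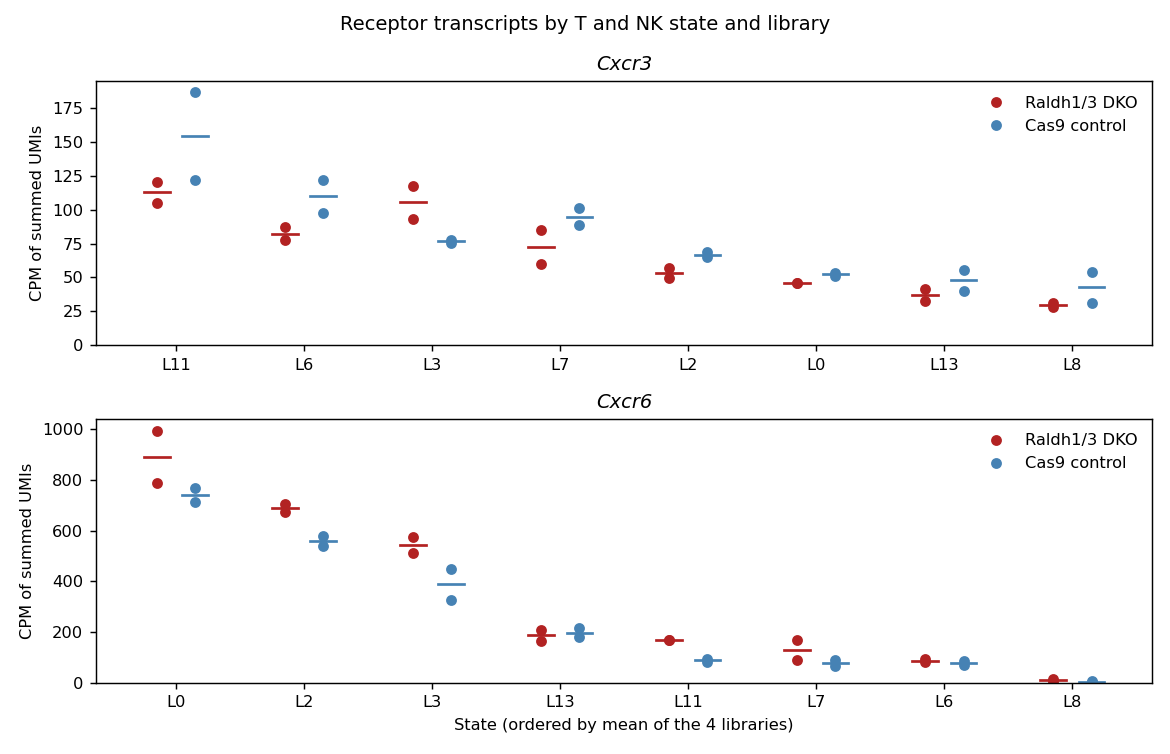
CPM of summed UMIs (y axis) of the 2 receptors in the T and NK states tested (x axis), with 1 point per library, a bar at each group mean, and Raldh1/3 DKO left of Cas9 control. In L11 the DKO libraries had 169 and 167 CPM of Cxcr6, above the control libraries at 94.4 and 84.0 CPM, and in L3 they had 93.1 and 118 CPM of Cxcr3, above 77.8 and 75.6 CPM.

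Whether the change of a gene differed among states was tested with all state-by-group terms together, library as block. None of the members passed. For Cxcr3 over 8 states the unadjusted p was 0.0352 and adjusted p = 0.947, and for Cxcl9 over 12 states adjusted p = 0.932 (edgeR). In these tests 0.0713% of genes in the T and NK states and 0.57% in the myeloid states passed. Before it, 4 pairs of states had been compared, picked after their levels were seen, with 17 terms of the 5 genes, of which 10 were ligands in myeloid states or receptors in T states. The 1 term of the 17 that passed was Cxcl9 in M1 against M11, at -0.77 (adjusted p = 0.00975, edgeR, 0.3% of genes passed), and without DKO replicate 2 it did not pass (-0.56, adjusted p = 0.233). No member passed between L3 and L2, L3 and L6 or M5 and M9, where 0.0249%, 0.104% and 0.0745% of genes passed.

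Genes linked to receptor expression passed within single T states. In L0, 69 of 8293 genes passed, 0.832% of those tested. Tbx21, which encodes T-bet, a known activator of Cxcr3, rose there: it was 107 and 106 CPM in the DKO libraries, against 61.8 and 50.5 CPM in the control libraries (log2 0.86 ± 0.16, adjusted p = 0.0111, edgeR). Cxcr3 in the same cells was 46.0 and 45.9 CPM in DKO, against 53.2 and 51.2 CPM in control. Bhlhe40, a transcription factor of tissue-resident T cells, rose in L0 and in L3. Irf1, Ccl3 and Cxcr4 also rose in L0. Gbp2, Gbp4, Igtp and Ccr7 rose in L3, where 72 of 6476 genes passed, 1.11% of those tested. The L3 calls rest on single libraries: Gbp2, Gbp4, Igtp, Ccr7 and Bhlhe40 did not pass in L3 without DKO replicate 1. Gbp2, Igtp and Bhlhe40 also did not pass there without either control library, nor Gbp4 without control replicate 1. Of the 5 list genes called in L0, 2 passed without control replicate 2 and 3 without DKO replicate 1. Without control replicate 2 the adjusted p was 0.0519 for Tbx21, 0.238 for Irf1 and 0.246 for Cxcr4 (edgeR). Without DKO replicate 1 it was 0.102 for Irf1 and 0.180 for Ccl3 (edgeR). List genes also passed in other T and NK states, not all of them higher. In L6, 1 of 10 receptor-linked genes rose and 2 of 8 other chemokine genes fell. In L8, 1 of 7 other chemokine genes rose and 1 fell, and in L7 and L11 the list genes that passed rose. In these states 0.031% to 0.457% of all genes passed. Over all T-like cells 0 of 12 genes of the receptor-linked list passed, with 11 positive and a median log2 change of 0.28, against 0.01 for all genes tested.

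Transcripts of myeloid cells moved with group in the lymphocytes. Lyz2, a macrophage and neutrophil lysozyme, was the 1 gene of 11172 that passed in T-like cells, 0.00895% of those tested. It was 29.0 and 33.8 CPM in the DKO libraries, against 94.2 and 130 CPM in the control libraries. In monocyte/macrophage-like cells it was 2354 and 2593 CPM in DKO, against 5043 and 5724 CPM in control. Of the 15 monocyte/macrophage markers 13 lay lower in DKO T-like cells without overlap, as 16% of all genes did, and their summed level was 1225 and 1252 CPM in DKO, against 1370 and 1487 CPM in control. The neutrophil markers summed to 6.94 and 8.39 CPM in DKO T-like cells, against 11.1 and 26.6 CPM in control. Cxcl9 itself was 11.5 and 9.59 CPM in DKO T-like cells, against 14.3 and 20.2 CPM in control. The part of these transcripts in the results above was not tested.

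The genes most like each member over 27 states were taken from the first 5 of 8899 genes, by Pearson r of log2(CPM + 1) as a description. For Cxcl9 they were Slamf8, Batf2, Cd74 and Pak1 (r 0.97 to 0.96), and for Cxcl10 Irf7, Irgm1, Oasl2, Stat2 and Rtp4 (0.88 to 0.84). Those of Cxcl16 were Cttnbp2nl, Soga1, Ctsh, Tnfrsf11a and Nrp2 (0.98 to 0.97). For Cxcr3 they were Gimap3, Tox, Cd28 and Gimap4, and for Cxcr6 Lta, Bcl11b, Lat, Xlr4b and Ubash3a. The states share libraries and fall into myeloid states and T and NK states. Cxcl9 had r 0.95 with Cxcl16 and 0.66 with Cxcl10. Of thinned monocyte/macrophage-like cells with a Cxcl9 UMI, 32.8% and 26.1% in DKO and 28.7% and 31.3% in control had a Cxcl10 UMI, against 17.2% and 11.5% of the other cells in DKO and 11.6% and 14.6% in control.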

How the data were processed

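The deposited values were counts of UMIs per barcode and gene, whole numbers per the file headers, in 4 matrices with 1 library each. Per the submitters' processing notes, the tools were Cell Ranger, Seurat 3.1.0 and R 3.6.0, and 2 builds are listed, mm10 and GRCh38. Aligner settings and strand use are not given in the sources used here.

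The members, lists and tests were chosen with earlier results of these data known. Cells needed at least 200 genes, 500 UMIs and at most 10% mitochondrial UMIs, and the highest Scrublet doublet scores were removed at 0.8% per 1000 barcodes. Clusters came from 2000 variable genes, 30 principal components, 20 neighbours and Leiden at resolution 1 (scanpy 1.11.5, igraph 0.11.9), and myeloid cells and T and NK cells were clustered again into states. After the clusters were seen, 2 naming rules were added: a cluster with no own marker but at least 2 of another class among its leading genes took that class, and T needed Cd3e in 50% of cells. A state with more markers of another class than of its own among its leading genes was left unnamed, as L9 was.

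Counts were summed per library, class and state (at least 50 cells per library) and tested with edgeR 4.0.16 in R 4.3.3 (TMM, low-count filter, quasi-likelihood, Benjamini-Hochberg over all genes tested, threshold 0.05), which was tested on simulated data. DESeq2 1.42.0, other filters, scalings and resolutions were alternatives. Named list genes were those called in a class, or else the 2 with the largest absolute change at 20 CPM or more in the higher group. List genes called in single states, the neutrophil-like fit, 4 pairs of states and the joint state test were added after values were seen. Some genes are not reported here.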

Additional observations from a re-analysis of the deposited data

Results flagged for a closer look

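The change of Cxcl9 differed between states M1 and M11, by -0.77 on the log2 scale (M1 minus M11, unadjusted p = 1.42e-05, adjusted p = 0.00975, edgeR quasi-likelihood test with library as block, where 0.3% of 10995 genes passed). In M1 Cxcl9 was 1685 and 1391 CPM in DKO, against 2030 and 2606 CPM in control, and in M11 it was 784 and 879 CPM in DKO, against 603 and 873 CPM in control. This pair was picked after the levels had been seen, as 1 of 4 pairs of states with 17 terms of the 5 genes, and it was the 1 term that passed. The test of all 11 state-by-group terms together, which picks no pair and was added later, gave adjusted p = 0.932 for Cxcl9. Without DKO replicate 2 the difference was -0.56 (adjusted p = 0.233). The pair is therefore not evidence on its own that the change of Cxcl9 differs among states.

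The other pairs did not pass. The change of Cxcr3 in L3 minus that in L2 was 0.81 (adjusted p = 0.763), and in L3 minus L6 it was 0.87 (adjusted p = 0.263). The change of Cxcl10 in M5 minus that in M9 was -0.68 (adjusted p = 0.375, all edgeR).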

How the results depend on the processing

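With 2 libraries a group, counts of called genes moved widely. For monocyte/macrophage-like cells (1 gene) they were 148 with DESeq2, 4 with the replicate block, 43 without the low-count filter, 2 without doublet removal and 0 with the stricter cell filter. For dendritic-like cells (0) they were 8 with DESeq2 and 150 without the filter. For T-like cells (1) they were 29 with DESeq2, 2 with the replicate block, 392 without the filter and 17 with the stricter cell filter. For NK-like cells (14) they were 3, 127 and 7 in DESeq2, no filter and stricter cells, and 9 at resolution 2. For all CD45+ cells (0) they were 426 with DESeq2 and 78 without the filter. Replicate numbers name no shared source, and same-numbered libraries deviated apart (r -0.17 to -0.23). Pairing them crosswise called 18, 181, 590, 475 and 515 genes in those units in order. The cause was not tested.

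Cxcr6 over all CD45+ cells passed with DESeq2 (1.16), in the crossed pairing (1.16) and without the filter (1.16). Cxcr6 in NK-like cells passed in the crossed pairing (1.03) and without the filter (1.11), and Cxcl10 in dendritic-like cells in the crossed pairing (-0.50). Cxcr6 in T-like cells and Cxcl9 in neutrophil-like cells also crossed the threshold in some alternative or with a library left out. Within single states members did so as well, and these cases are not listed here. With the replicate block Cxcl10 in M4 was -0.066.

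Of the 7 interferon gamma genes called in M4, DESeq2 gave 3 an adjusted p and called all 3. Of the called list genes, DESeq2 called 1 of 4 in L0 and 0 of 5 in L3. In M4, L0 and L3 calls over all genes ran from 17 to 823, 43 to 374 and 18 to 116 without 1 library.

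Leaving out 1 library, calls ran from 0 to 212 in monocyte/macrophage-like, 0 to 466 in dendritic-like, 2 to 642 in T-like, 23 to 207 in NK-like and 0 to 248 in all cells. A lone library was assumed to vary like the other group. Log2 changes of Cxcl9 then ran from -0.17 to 0.25 in monocyte/macrophage-like cells, -0.44 to 0.065 in all cells, -0.18 to 1.33 in neutrophil-like cells, -0.47 to 0.030 in M0, -0.87 to 0.0014 in M10, -0.12 to 0.47 in M11, -0.35 to 0.062 in M4, -1.05 to 0.16 in M8 and -0.36 to 0.25 in M9. Those of Cxcl10 ran from -0.65 to 0.13 in monocyte/macrophage-like and -0.61 to -0.39 in dendritic-like cells, -0.81 to 0.54 in M10, -0.19 to 0.78 in M11, -0.81 to 0.65 in M4, -0.53 to 0.16 in M6, -0.24 to 0.20 in M8 and -0.32 to 0.40 in M9. Those of Cxcl16 ran from -0.047 to 0.23 in all cells, -0.094 to 0.33 in dendritic-like and -2.64 to 0.45 in neutrophil-like cells, -0.23 to 0.39 in M10, -0.0015 to 0.31 in M15, -0.14 to 0.26 in M2, -0.13 to 0.37 in M8 and -0.075 to 0.63 in M9. Cxcr3 in NK-like cells ran from -0.69 to 0.15. Cxcr6 ran from 0.32 to 1.58 in NK-like, 0.049 to 0.60 in T-like and 0.99 to 1.33 in all cells, -0.32 to 0.041 in L13 and -0.057 to 0.26 in L6. The DKO minus control share of thinned monocyte/macrophage-like cells ran from -2.22 to 10.5 percentage points for Cxcl9 and -2.80 to 5.20 for Cxcl10.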
